A study of Caenorhabditis elegans with 2 samples.

Results

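The genes described here encode the CDC-48 ATPase of the nematode Caenorhabditis elegans and the partner proteins UFD-1 and NPL-4. They are cdc-48.1, cdc-48.2, cdc-48.3, ufd-1, npl-4.1 and npl-4.2, which make 6 of the 19973 protein-coding genes on the nuclear chromosomes in the Ensembl 115 annotation of the WBcel235 genome. The set was selected on earlier peak results of these data, in which the site beside cdc-48.1 stood among the strongest. Signal, rank and the presence of a peak at these genes are therefore given as a description, with no test. A gene was credited with a peak if the summit, the highest point of the peak, fell inside the gene or no more than 1000 bp from the start of an annotated transcript. An annotated 5' end is not always where transcription begins.

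The data are chromatin immunoprecipitation followed by sequencing (ChIP-seq), in which DNA fragments bound by a protein are recovered with an antibody and sequenced. Whole worms of strain RW12207 carried the CRISPR-made allele st12207, an insertion at ekl-4 that adds TY1, EGFP and 3xFLAG tags to the protein, and the tagged protein was pulled down through GFP. The mammalian relative of EKL-4 is DMAP1, a protein of the NuA4/TIP60 and SWR1 chromatin complexes. All animals were young adults at 65 h, started from larvae held without food after bleaching, and the labels give 2 biological replicates of 1 group. Whole animals mix all tissues, so a peak cannot be placed in a cell type, and no untagged or input library was analysed here.

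CDC-48, called p97 or VCP in mammals, is an AAA ATPase that unfolds ubiquitinated proteins and pulls them out of membranes, chromatin and larger assemblies. UFD-1 and NPL-4 form the adaptor that binds ubiquitin chains and brings such proteins to the ATPase, as in degradation at the endoplasmic reticulum and in the unloading of the replication machinery. In the worm, cdc-48.1 and cdc-48.2 can stand in for each other, while CDC-48.3 is a more distant relative that has been reported to bind and inhibit the Aurora B kinase AIR-2.

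The sequences at the centre of the results begin with the stretch upstream of cdc-48.1, which held the strongest peak of the set. The others are an upstream window of equal length at the paralogue cdc-48.2 and the copy shared by both npl-4 genes. The cdc-48.1 peak spanned chrII:10563453-10563707 on the minus strand, and the cdc-48.2 window of the same 255 bp was centred on a weak upstream summit at chrII:8138121-8138375 on the plus strand. The npl-4.1 stretch was chrII:5631051-5631350 and the npl-4.2 stretch chrII:5622589-5622888, both on the plus strand, each ending at the base before its gene and with the same 300 bases. All were read from the RefSeq genome of WBcel235, whose coordinates are those of ce11. They are printed 5' to 3' on the strand of the gene, with capitals marking matches to the motifs searched, on either strand.
cdc-48.1 peak: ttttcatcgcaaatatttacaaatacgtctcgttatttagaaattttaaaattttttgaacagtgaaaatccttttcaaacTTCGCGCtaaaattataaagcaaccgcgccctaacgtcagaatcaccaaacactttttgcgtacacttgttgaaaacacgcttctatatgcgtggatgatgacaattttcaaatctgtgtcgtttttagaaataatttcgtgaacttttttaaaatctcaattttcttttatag
cdc-48.2 upstream window: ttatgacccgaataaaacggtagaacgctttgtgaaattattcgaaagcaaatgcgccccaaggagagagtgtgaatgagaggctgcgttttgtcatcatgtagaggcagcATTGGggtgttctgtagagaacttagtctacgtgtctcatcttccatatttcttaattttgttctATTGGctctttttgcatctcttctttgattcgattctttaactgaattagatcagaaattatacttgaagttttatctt
npl-4.1 and npl-4.2 upstream: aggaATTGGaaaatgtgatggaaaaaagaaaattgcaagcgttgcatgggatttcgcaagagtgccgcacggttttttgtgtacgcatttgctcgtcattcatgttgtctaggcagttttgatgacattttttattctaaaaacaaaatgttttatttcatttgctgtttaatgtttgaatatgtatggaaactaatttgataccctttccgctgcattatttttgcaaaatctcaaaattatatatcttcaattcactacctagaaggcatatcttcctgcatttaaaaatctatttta

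Each replicate and the data of both together gave a ranked list of peaks and a shorter thresholded list. The authors' lists came from IDR (irreproducible discovery rate), which asks how far the order of peaks repeats between sets of reads. Thresholded peaks had an IDR score of at least 830 on a scale that reached 1000. Ranks given here are not IDR ranks but places by signal value among the nuclear peaks of a list. Nuclear thresholded peaks numbered 1495 in replicate 1, 1830 in replicate 2, 2482 in the conservative list, which ranked the replicates against each other, and 2829 in a larger list from both. The conservative list is the main list here. The signal value is the strength the authors' caller gave a peak relative to a control. Its scale is not stated, so values are compared only within a list. Read depth is unknown from these files.

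Of the 6 genes, cdc-48.1 alone had a thresholded peak, and its upstream site was in each of the 4 lists. The share of all protein-coding genes with a thresholded summit by the same rule was 6.99% in replicate 1, 8.04% in replicate 2, 10.6% in the conservative list and 11.9% in the larger list. Nothing is read from 1 of 6 against these shares, since the peaks entered the choice of the genes. In the ranked lists, which hold many weak peaks, the shares of all genes were 66.6%, 80.6%, 73.7% and 76%, in the same order. The 6 genes together had 21 ranked peaks in replicate 1, 25 in replicate 2, 28 in the ranking behind the conservative list and 29 in the larger ranking.

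**Figure D1:**
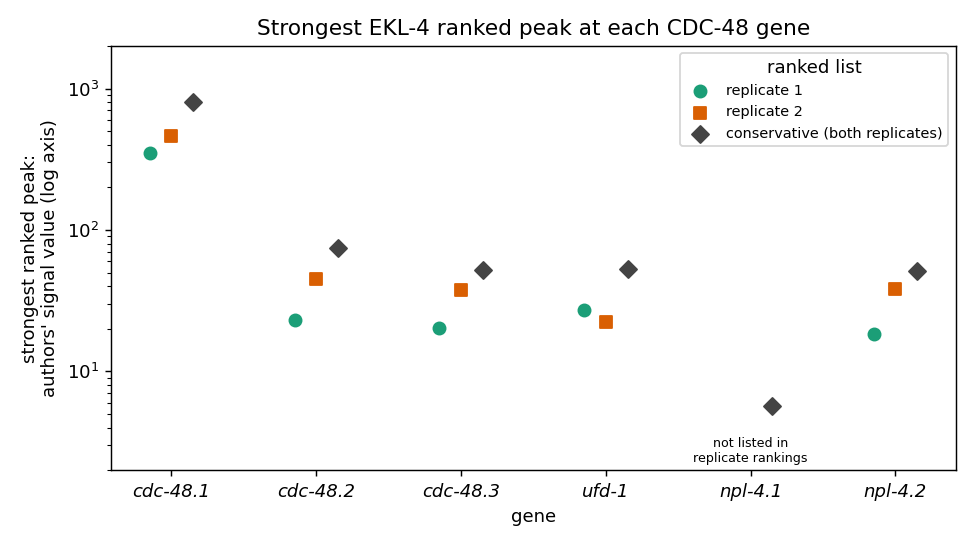
Strongest ranked peak at each of the 6 genes, as the authors' signal value on a log axis, in replicate 1 (circles), replicate 2 (squares) and the ranking behind the conservative list (diamonds). The cdc-48.1 points lie at 349, 459 and 799, above all points of the other genes, and npl-4.1 has a point only in the conservative ranking, at 5.68.

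The cdc-48.1 gene (WBGene00007352, chromosome II 10560036 to 10563407, minus strand) encodes a form of the ATPase itself. The signal of its strongest peak was 349 in replicate 1 and 459 in replicate 2, with a mean of 404 ± 77.5 (SD, n = 2), and 799 in the conservative and larger lists. The 2 replicate lists have no stated common scale, and their median thresholded signals were 61.0 and 73.2. The SD therefore cannot be read as replicate variation alone. Both replicates placed this peak near the top of their lists. It ranked 7 of 1495 nuclear thresholded peaks in replicate 1, 3 of 1830 in replicate 2 and 4 of 2482 in the conservative list. Its signal was 5.72 times the list's median in replicate 1, 6.26 times in replicate 2 and 7.41 times in the conservative list. Against the strongest nuclear thresholded peak of each list it reached 0.577, 0.683 and 0.635 of that signal. The IDR score was 1000 in every list.

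This peak was intergenic and upstream of the gene. The summit lay at -158 bp from the annotated 5' end in the conservative list, at -154 bp in replicate 1 and at -176 bp in replicate 2 (negative distances are upstream). The peak reached from 46 to 300 bp upstream, clear of the gene. The next gene upstream, C06A1.6, lies on the same strand with a gap of 704 bp, and no other protein-coding gene start was found within 1000 bp of the summit. The snoRNA gene C06A1.9, inside cdc-48.1, starts downstream, with the summit at -501 bp from its 5' end. The peak was 236 bp wide in replicate 1, 207 bp in replicate 2 and 255 bp in the conservative list. The median widths of these lists were 330, 304 and 360 bp, and 11.0%, 6.61% and 9.59% of nuclear thresholded peaks were narrower. Every other ranked peak of the genes described here had exactly the median width of its list, whatever its signal. Whether that shared width was set by the peak caller was not tested, so the smaller width is not read as a property of the site.

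A further cdc-48.1 peak, at chromosome II 10562769 to 10563128, was thresholded in the conservative and larger lists but in neither replicate's own list. Its summit lay in an intron of cdc-48.1, at 458 bp from the 5' end of the gene. It was also 115 bp from the 5' end of the snoRNA gene C06A1.9 (WBGene00045152, chromosome II 10562952 to 10563064, minus strand) and 3 bp past its 3' end. The signal was 73.1 in the conservative list, rank 2207 of 2482, far below the upstream peak. In the replicate rankings the nearest summits, at 475 bp in replicate 1 and at 406 bp in replicate 2, carried signals of 30.4 and 52.4 with scores of 217 and 463, under the 830 of the thresholded lists. The other 6 ranked cdc-48.1 peaks in the conservative ranking had signals of 18.6 to 63.2. The highest score among them was 571, at an intronic summit 2530 bp into the gene, and the summit at 3252 bp lay in the 3' UTR.

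**Figure D2:**
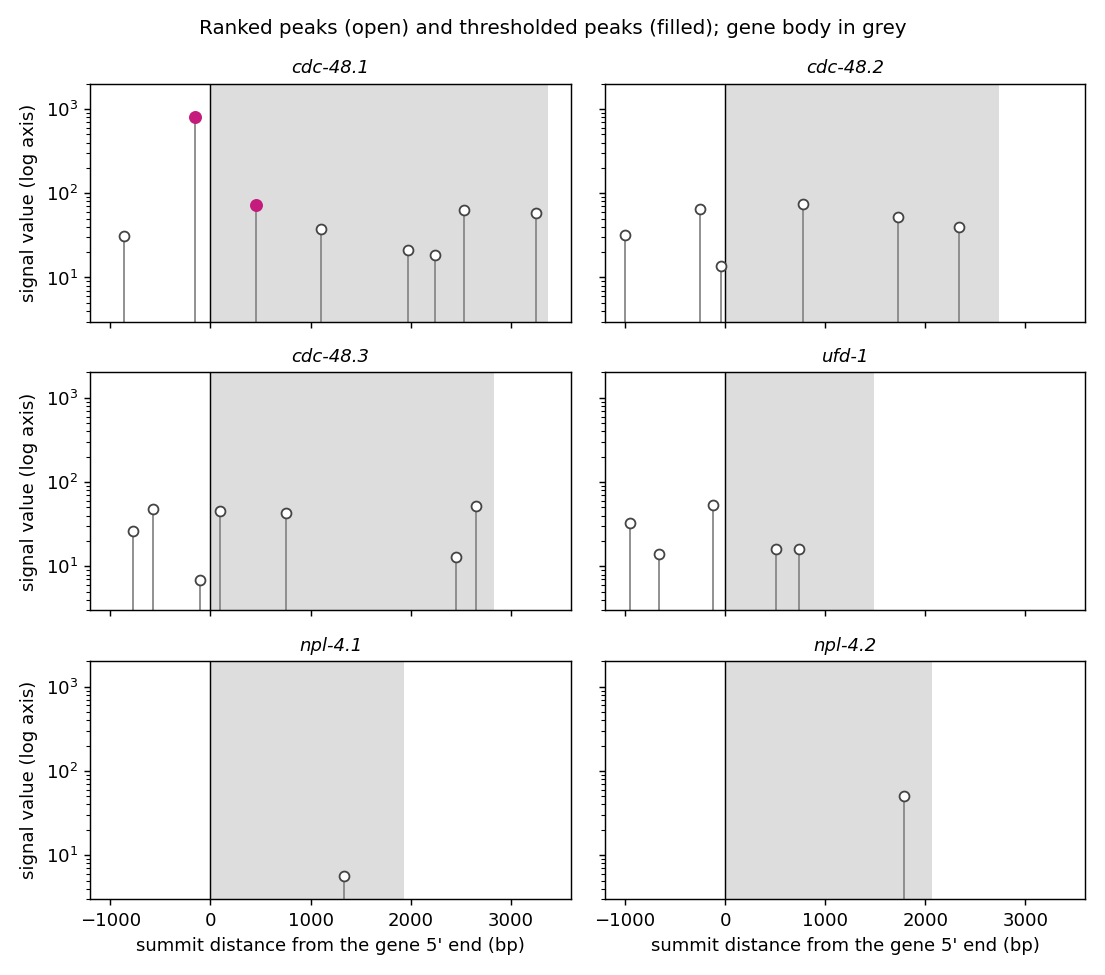
Peaks of the conservative ranking at each of the 6 genes, with the summit's distance from the gene 5' end in bp on the x axis and the authors' signal value on a log y axis. Open circles are ranked peaks, filled circles are in the thresholded list, and grey marks the gene. The 2 filled circles are both at cdc-48.1, at -158 bp (799) and 458 bp (73.1).

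The paralogue cdc-48.2 (WBGene00008053, chromosome II 8138496 to 8141230, plus strand) had ranked peaks only. Its strongest signal was 23.1 in replicate 1, 45.1 in replicate 2 and 74.2 in the conservative ranking. These peaks were all inside the gene but not at the same place: the strongest summit lay at 776 bp in replicate 1 and in the conservative ranking and at 1738 bp in replicate 2. The summit nearest to the cdc-48.1 arrangement lay at -248 bp, with a signal of 65.1 in the conservative ranking and 38.2 in replicate 2, and replicate 1 had no peak within 1000 bp of that summit. The rule's edge fell among the cdc-48.2 peaks, with a summit at -998 bp (signal 32.3 in the conservative ranking) just inside. In the same ranking the nearest summits beyond the rule were those at -1187 bp from ufd-1 (49.2), -1320 bp from npl-4.1 (19.2), -1403 bp from cdc-48.1 (26.5) and -1441 bp from cdc-48.2 (5.95).

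The strongest cdc-48.1 peak exceeded the strongest cdc-48.2 peak 15.1 times in replicate 1, 10.2 times in replicate 2 and 10.8 times in the conservative ranking, a mean over replicates of 12.7 ± 3.50 (SD, n = 2). The direction was the same in both replicates. Since the genes were chosen with this cdc-48.1 site already known to be strong, that agreement lends no support. Summed over all ranked peaks of each gene, the conservative ratio was 3.99. Apart from the upstream site, the strongest cdc-48.1 signal was 40.0 in replicate 1, at a summit in the 3' UTR, and 52.4 in replicate 2, in an intron. Both were above the strongest cdc-48.2 peak of the same replicate (23.1 and 45.1). In the conservative ranking the order was the other way. There the strongest cdc-48.2 peak (74.2) was slightly above the intronic cdc-48.1 peak (73.1) in signal, yet their IDR scores were 85 and 899, and only the latter was thresholded. Of the 3088 nuclear peaks of that ranking with a signal at or above that of the cdc-48.2 peak, 2188 (70.9%) were in the thresholded list. In the replicates' own rankings the peaks nearest to this cdc-48.2 summit, at 776 bp in replicate 1 and 855 bp in replicate 2, scored 26 and 289. The cdc-48.1 peaks nearest to the thresholded intronic summit scored 217 and 463, higher in both replicates. The strongest cdc-48.2 peak of replicate 2 scored 526, but it lay elsewhere, at 1738 bp.

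The products of the paralogues are alike, while the sequence before the genes is not. The translated coding sequences of cdc-48.1 and cdc-48.2, of 809 and 810 residues, were identical at 89.8% of aligned residues, and the coding bases at 76.3%. A global alignment of the 1000 bp before each gene gave identity at 58.7% of aligned bases. CDC-48.3, of 724 residues, was 33.5% identical to CDC-48.1 and 33.7% identical to CDC-48.2. No 31-base word within 100 bp of either thresholded cdc-48.1 summit, or of the strongest cdc-48.2 summit, occurred elsewhere in the nuclear genome.

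The cdc-48.1 peak held a match to the E2F site, the element bound by E2F proteins in cell cycle control. The E2F site was searched as TTNNCGC with C or G at each N. The other motifs were CTGCGTCTC, the heat shock element core GAANNTTC, the E-box CACGTG, the CRE palindrome TGACGTCA, the related form TGACGTG (which can overlap an E-box), the CCAAT box and the GATA form TGATAA, all on both strands. The match was TTCGCGC, at bases 82 to 88 of the sequence printed above, with its centre 58 bp upstream of the summit at base 143. E2F matches stood within 100 bp of 16.4% of all 2482 main summits, in 20.5% of whole main peaks and in 9.47% of 29784 promoters (250 bp before to 50 bp after a 5' end). None of the other 7 motifs was found in this upstream cdc-48.1 peak. The thresholded intronic cdc-48.1 peak held no E2F match and 1 match to GAANNTTC, a motif in 21.6% of whole main peaks. The E2F match was not particular to cdc-48.1 among the 6 genes, since the sequence within 100 bp of the strongest ranked cdc-48.3 summit held 1 as well. CACGTG stood within 100 bp of the strongest ranked summits of cdc-48.2 and ufd-1, and of 5.88% of main summits. The printed cdc-48.2 window held CCAAT matches, read on the opposite strand, at bases 112 to 116 and 177 to 181, and the npl-4 stretch held a CCAAT match at bases 5 to 9. CCAAT was in 45.9% of promoters and within 100 bp of 32.9% of main summits. A match shows only that the letters are present.

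In base composition the cdc-48.1 site stood at the low end of the main list. The sequence within 100 bp of its summit had 32.3% GC, against a median of 42.8% over the 2482 main summits, of which 6.08% had less. The median of all promoters was 34.9%. The intronic cdc-48.1 summit had 36.8% GC, and the strongest ufd-1 summit had the lowest value among the strongest ranked summits of the 6 genes, at 28.9%.

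The distant relative cdc-48.3 (WBGene00010562, chromosome I 8032863 to 8035696, minus strand) shares its upstream region with K04G2.4, which lies 101 bp away on the opposite strand. No thresholded summit was found there. The strongest ranked signal was 20.1 in replicate 1, 37.9 in replicate 2 and 52.5 in the conservative ranking, with summits at 2573, 750 and 2656 bp, all inside the gene. The summit nearest to its 5' end in the conservative ranking lay at 99 bp, in a coding exon, with a signal of 45.1.

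The adaptor subunit gene ufd-1 (WBGene00006733, chromosome IV 12329408 to 12330890, minus strand) lies 85 bp downstream of F19B6.1 on the same strand. Its strongest ranked signal was 27.3 in replicate 1, 22.5 in replicate 2 and 52.8 in the conservative ranking. The summits were all upstream, at -89, -119 and -119 bp, so ufd-1 was the other member whose strongest summit lay close before the 5' end. The conservative summit was also inside F19B6.1. Scores were 131 or lower for all ufd-1 peaks of the replicate rankings.

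Beyond cdc-48.1 the order of the genes changed between replicates. In replicate 1 the strongest signals ran from ufd-1 (27.3) through cdc-48.2 (23.1) and cdc-48.3 (20.1) to npl-4.2 (18.4). In replicate 2 the order was cdc-48.2 (45.1), npl-4.2 (38.3), cdc-48.3 (37.9) and ufd-1 (22.5). These 4 genes therefore cannot be placed in a stable order, whereas cdc-48.1 was first and npl-4.1 was without a peak in both. In the conservative ranking, 86.8% of all protein-coding genes had a lower strongest signal than cdc-48.2, 70.5% than ufd-1, 70.0% than cdc-48.3 and 68.1% than npl-4.2, genes with no peak included. For cdc-48.1 that share was 99.97%, and 5 genes were above it. The median over the 14713 genes with a ranked peak was 47.5.

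**Figure D3:**
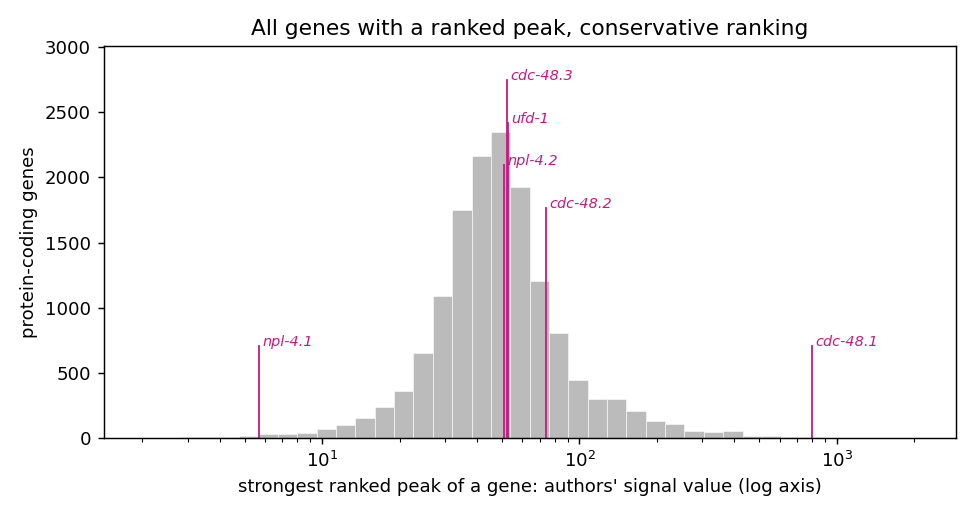
Number of protein-coding genes (y axis) by the signal value of their strongest peak in the ranking behind the conservative list (log x axis), for the 14713 genes with a peak, with the 6 genes marked by lines whose heights carry no value. The other 4 genes stand near the median of 47.5 or somewhat above it, cdc-48.1 stands far to the right at 799 and npl-4.1 far to the left at 5.68.

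The NPL-4 genes are near-identical copies. The npl-4.1 gene (WBGene00019120, chromosome II 5631351 to 5633284) and npl-4.2 (WBGene00019121, chromosome II 5622889 to 5624959) lie on the plus strand with 5' ends 8462 bp apart. Their coding sequences differed at 8 of 1587 bases and their products at 5 of 529 residues. The sequence before them was the same for 1325 bp without a difference, so the printed 300 bases belong to both. All 31-base words in the 1000 bp before each gene occurred more than once in the nuclear genome, as did 86.7% of those within npl-4.1 and 84.7% of those within npl-4.2.

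Within this copied sequence almost no peak was listed. In npl-4.1 there was no ranked peak in either replicate, and the peak in the conservative ranking had a signal of 5.68, a score of 39 and a summit in a coding exon, 1325 bp from the nearest 5' end. For npl-4.2 the strongest signal was 18.4 in replicate 1, 38.3 in replicate 2 and 51 in the conservative ranking, with summits at 1743, 1784 and 1784 bp. That places them at the far end of the gene, where the copies diverge: 19.9% of 31-base words around the conservative npl-4.2 summit were repeated, against 81.9% around the npl-4.1 summit. No ranked summit of any list lay within 1000 bp of a 5' end of either gene. The conservative signal of npl-4.1 was 0.111 of that of npl-4.2, and no ratio could be had in the replicates.

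Other genes whose starts lie in repeated sequence were looked at in the same way. Of 229 protein-coding genes with at least 90% repeated 31-base words within 1000 bp of the 5' end, 21 (9.17%) had a summit of the conservative ranking there. Among the 16830 genes with under 10% repeated words the share was 69.2%, and among the 2914 genes between these limits it was 65.0%. In the thresholded conservative list the shares were 0.437%, 8.64% and 6.11%, in the same order. At both npl-4 genes 98.4% of these words were repeated, against 6.14% at cdc-48.1 and 0% at cdc-48.2, cdc-48.3 and ufd-1. How reads with several equal matches were treated is not given in the sources used here, so the lack of a peak at the npl-4 starts cannot be told apart from reads that could not be placed.

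**Figure D4:**
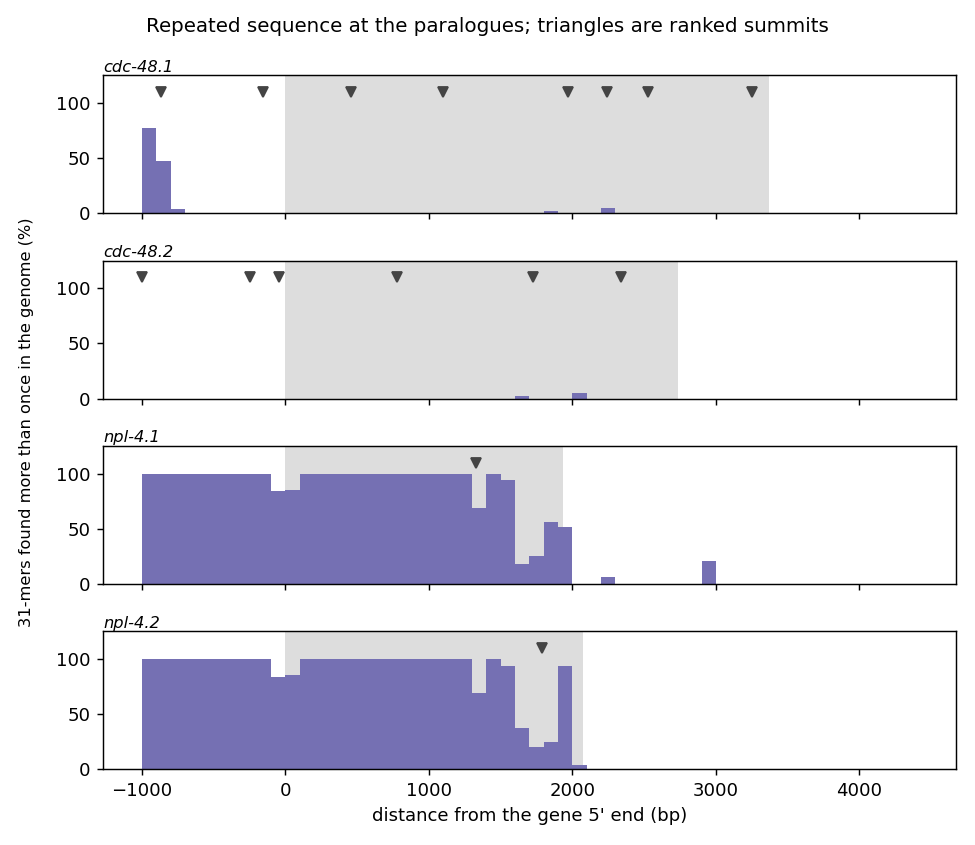
Percentage of 31-base words that occur more than once in the nuclear genome (y axis) in 100 bp steps by distance from the gene 5' end (x axis, bp), at cdc-48.1, cdc-48.2, npl-4.1 and npl-4.2. Grey marks the gene and triangles mark summits of the ranking behind the conservative list. Repeated words fill the npl-4 starts, where no triangle stands, and are nearly absent at cdc-48.2 and at cdc-48.1 but for its far upstream end.

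Other genes of the CDC-48 pathway were taken in 4 lists and read against the 10.6% of all genes with a main summit. Of 12 further CDC-48 cofactor genes 2 had a main summit (16.7%), namely ufd-3 (signal 144, at -147 bp), whose yeast relative is a Cdc48-binding WD-repeat protein, and the ubiquilin gene ubql-1 (136, at -490 bp). Both were thresholded in each replicate, with 51.2 and 94.9 for ufd-3 and 60.4 and 70.3 for ubql-1. These summits also counted for C05C10.5 and for the protein disulphide isomerase gene pdi-3. The UBX domain genes ubxn-1, ubxn-2, ubxn-3, ubxn-4, ubxn-5 and ubxn-6 had no main summit, nor did ufd-2, atx-3, png-1 and chn-1. The larger list, where 11.9% of all genes had a summit, held 4 of the 12 (33.3%), with ubxn-2 (84.9) and ubxn-6 (91.4) added. The ubxn-2 gene was also in the list of replicate 1 (43.8).

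Among 11 genes of degradation at the endoplasmic reticulum 3 had a main summit (27.3%). They were the ubiquitin-conjugating enzyme genes ubc-6 (signal 316, at -270 bp, rank 108) and ubc-7 (145, at -352 bp) and the ubiquitin shuttle gene rad-23 (113, at 360 bp). The ubc-6 signal was 135 in replicate 1 and 159 in replicate 2, and that of ubc-7 was 54.8 and 92.8. The rad-23 peak was thresholded in replicate 1 (47.4) and not in replicate 2. The ubc-6 summit also counted for aka-1 and the rad-23 summit for the proteasome gene rpn-12. The membrane ligase and channel genes sel-1, sel-11, hrdl-1, marc-6, cup-2 and der-2 had none, nor did ubc-26 and ddi-1. Of 15 genes of replisome unloading 2 had a main summit (13.3%), the helicase subunit gene mcm-4 (153, at 350 bp, shared with ekl-7) and the GINS subunit gene psf-2 (89.4, at 931 bp, shared with F31C3.6). The mcm-4 signal was 51.7 in replicate 1 and 95.8 in replicate 2, while psf-2 was in no other thresholded list. Those without were lrr-1, cul-2, elc-1, mcm-2, mcm-3, mcm-5, mcm-6, mcm-7, psf-1, psf-3, sld-5, evl-18 and cdt-1.

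Other AAA ATPase genes had main summits in 6 of 14 cases (42.9%). The strongest were atad-3, for a mitochondrial ATPase (signal 269, at -437 bp), vps-4, whose product takes apart ESCRT-III filaments (208, at -263 bp), and spas-1, for the microtubule-severing protein spastin (133, at -372 bp). The signals of atad-3, whose summit also counted for nrde-2, were 118 in replicate 1 and 146 in replicate 2, and those of vps-4 were 110 and 93.9. The spas-1 peak was thresholded in replicate 1 (52.4) and not in replicate 2. The remaining 3, named outside the rule and after their values were seen, were ruvb-1 (113), ruvb-2 (106) and bcs-1 (79.2). The ruvb-1 and ruvb-2 genes had thresholded summits in replicate 2 (85.2 and 72.0) and not in replicate 1. The bcs-1 gene had a thresholded summit in replicate 1 (13.9) and not in replicate 2. RUVB-1 and RUVB-2 are worm relatives of the TIP60 and SWR1 subunits RUVBL1 and RUVBL2, and their summits also counted for tofu-1 and T22D1.18. No main summit was found at mac-1, nsf-1, mei-1, pch-2, ymel-1, spg-7, prx-1 or prx-6. Over the 4 lists in the order given, the median main signal of genes with a summit was 140, 145, 121 and 123, against 119 over all such genes. The highest signal in these lists, that of ubc-6, was below that of cdc-48.1. The lists were chosen with earlier results known and are described by counts only.

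**Figure D5:**
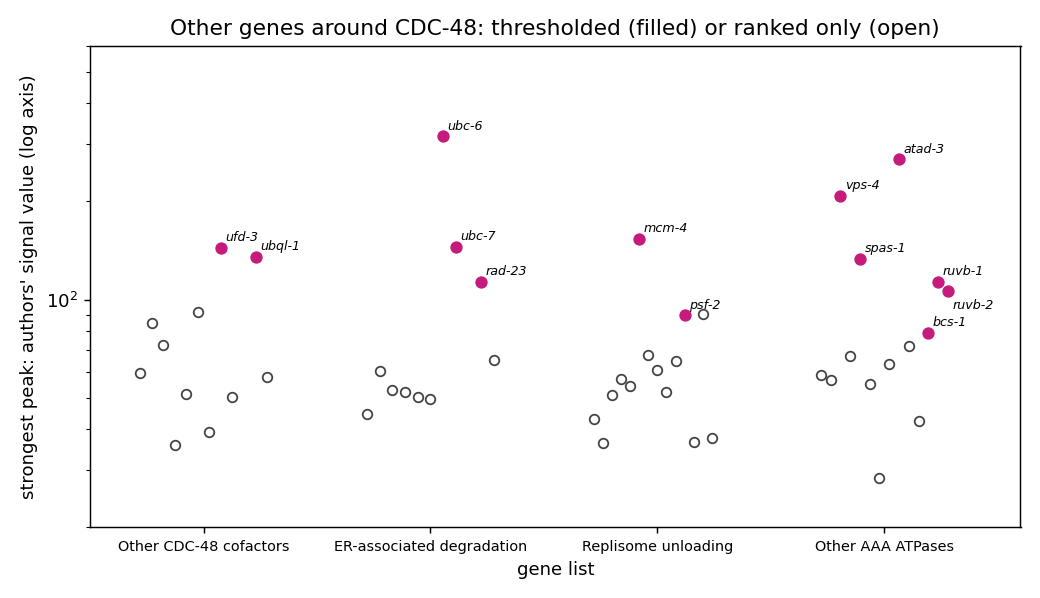
Strongest peak of each gene in 4 lists around CDC-48, as the authors' signal value on a log y axis, with filled circles for genes with a main thresholded summit and open circles for genes with ranked peaks only. The genes png-1, ubc-26 and cdt-1 have no ranked peak and are not drawn. The highest point is ubc-6 at 316.

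The genes most like cdc-48.1 in signal over the 4 thresholded lists, which come from 2 samples, were found by the Euclidean distance of log2 signal among 1002 other genes with a summit in all of them. The nearest was the ribosomal protein gene rpl-35, at a distance of 0.058, with signals of 345 in replicate 1, 447 in replicate 2 and 783 in the conservative list. Next were Y17G9B.5 and the ribosomal protein gene rpl-20, which share a summit (343, 422 and 756, distance 0.17). They were followed by C46C2.7 (363, 396 and 751, distance 0.25) and the HSP70-type gene F44E5.4 (420, 418 and 835, distance 0.31), which shares its summit with F44E5.5. The summit lay upstream of the 5' end for rpl-35 (-416 bp), Y17G9B.5 (-176 bp), rpl-20 (-286 bp) and F44E5.4 (-178 bp), and at 850 bp for C46C2.7.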

How the data were processed

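EKL-4 ChIP-seq peak lists of 2 biological replicates were used as deposited. The text files beside them record ce11 as the build and a control alignment as an input. Neither aligner nor peak caller is named in the sources used here. The signal value, as deposited, is a peak's strength over that control. The score, as deposited, is from the authors' IDR step, and the deposited −log10 q-value was not used in any result. Summit positions are the start plus the offset the authors gave. The labels give sheared fragments of 200 to 800 bp. Mitochondrial peaks were left out of ranks and counts. Each ranked list also holds 8 columns of values for single sets of reads, which were not used.

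Genes came from the Ensembl 115 annotation, and all 6 members were found. No test was made: the members and lists were chosen with earlier results of these data known, and the 90% and 10% limits on repeated words after seeing the data. Of the listed pathway names, cdc-45L and fign-1 had no gene of that name. Coding sequences were the longest of each gene, aligned globally with Biopython 1.88. By the naming rule, genes named are the members, neighbours of their main summits, up to 3 genes with the strongest main summits in each pathway list, the list's genes without one, and the 5 genes most like cdc-48.1. Alternatives were other windows, lists, thresholds and word lengths. Assignment of summits was checked on 200 planted summits, all recovered among 19973 genes. Python 3.11.15, numpy 2.4.6, pandas 2.3.3 and matplotlib 3.10.9 were used. The labels say that the replicates are biological, not how the cultures were raised.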

Additional observations from a re-analysis of the deposited data

How the results depend on the processing

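The count of members with a summit was 1, always cdc-48.1, under windows of 500 and 250 bp, with gene bodies left out, with each summit given to its nearest gene start, in the larger list, in each replicate's own list, above the list's median signal and among all ranked peaks scoring 540 or more. Because the set was chosen with this site known to be strong, the unchanged count could be foreseen and lends no support. In the replicates' own lists the cdc-48.1 signal was 349 to 459, and its offset -176 to -154 bp. These stand beside 799 in the conservative list, and the lists have no stated common scale. The ratio of cdc-48.1 to cdc-48.2 was 10.2 to 15.1 in the replicates' own rankings and 3.99 summed over peaks. It was taken from the ranked lists because cdc-48.2 had no thresholded peak. The ratio of the npl-4 genes had no value in the replicates or with nearest starts only, and stayed at 0.111 in the other rankings and windows. With words of 50 bases the repeated share was 82.6% in npl-4.1 and 79.5% in npl-4.2. The cofactor count was 4 of 12 (33.3%) in the larger list, where 11.9% of all genes had a summit. The replisome count was 1 with a window of 500 bp. No share of all genes is given for that window, so nothing is read from this count. No paired analysis was possible because there is 1 group.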

Other observations

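In the replisome list, mcm-2 and psf-3, chosen after their values were seen, had a thresholded summit in the list of replicate 1 and in no other. Their signals there were 102 and 142. In the ranking behind the conservative list the strongest peaks of these genes had 57.1 and 36.6. The lists have no stated common scale, so no change is read from these values. The sld-5 gene had a thresholded summit only in the larger list, with a signal of 90.3.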
